A study of Mus musculus with 18 samples.

Results

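The genes described here are 10 genes of antigen processing and major histocompatibility complex (MHC) class I presentation: Tap1, Tap2, Tapbp, B2m, H2-K1, H2-D1, Psmb8, Psmb9, Psmb10 and Nlrc5. They were found by symbol among the 51467 genes of the count table, and 9 of the 10 were among the 12851 genes tested (at least 3 CPM, the count scaled to the library's total, in at least 3 libraries). The group was picked because the high polysome to monosome ratio of Tap1 was higher in Dgcr8 KO cells. The ratio of Tap1, and the change in this ratio for every member, are therefore given below as a description without a test. The study measured how mRNAs were distributed over ribosome fractions in wild type (WT) and Dgcr8 KO mouse embryonic stem cells (ESCs), which lack the RNA-binding partner of Drosha and therefore canonical microRNAs. Both lines were untreated ESCs grown with serum, leukaemia inhibitory factor and the inhibitors PD0325901 and CHIR99021; the WT cells were the V6.5 line and the Dgcr8 KO cells a single established line, so the replicates of a genotype are samples of 1 line. After cycloheximide (100 ug/ml, 2 min), lysates were run on sucrose gradients from 10 to 50%, and the monosome, low polysome (2 to 4 ribosomes) and high polysome (4 or more) fractions were sequenced from 3 gradients per genotype, giving 18 libraries in 6 groups of 3. The labels give the replicates as separate samples without saying that they were separate cultures, so p-values measure the spread between these samples.

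Peptides that are shown on MHC class I molecules are cut from proteins by the proteasome. In the immunoproteasome, its catalytic subunits are replaced by the counterparts Psmb8, Psmb9 and Psmb10. The peptides are pumped into the endoplasmic reticulum by the transporter made of Tap1 and Tap2, and tapasin (Tapbp) holds the empty class I molecule next to it. The class I molecule is a heavy chain, such as H2-K1 or H2-D1, bound to beta-2 microglobulin (B2m). Nlrc5 is a transcriptional activator of these genes. ESCs are known for low surface levels of class I molecules, and interferon is the best known inducer of the pathway.

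The microRNAs that Dgcr8 KO cells lack include the ESC-enriched families that share 1 seed (bases 2 to 8, in capitals). Their mature sequences are shown because the 3' untranslated regions (UTRs) of the 10 genes were searched for sites of this seed (RefSeq, build GRCm38.p6).
mmu-miR-291a-3p: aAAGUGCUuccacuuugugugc
mmu-miR-294-3p: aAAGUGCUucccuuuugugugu
mmu-miR-295-3p: aAAGUGCUacuacuuuugagucu
mmu-miR-302b-3p: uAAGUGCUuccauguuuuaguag
mmu-miR-302d-3p: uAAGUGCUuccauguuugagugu
None of the 10 genes had a match to positions 2 to 8, or to positions 2 to 7 followed by an A, in the 3' UTR of its representative transcript (GENCODE M21). The same search found a match in 18.4% of 11763 tested protein-coding genes. The UTRs of the 10 genes were 55 nt (Psmb10) to 1197 nt (Nlrc5) long, against a median of 937 nt over the protein-coding genes. A missing match says only that these letters are not in these UTRs.

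The bases before the transcription start of B2m and H2-K1 are shown because both genes are read below in the same libraries and their promoters hold the classic elements of class I genes (RefSeq starts, GRCm38.p6). Capitals mark matches on either strand to the core of the interferon response element (AANNGAAA), the kappa B element of class I genes (GGGGATTCC), the core of the cyclic AMP response element (TGACG) and the CCAAT box (CCAAT). The B2m sequence is chr2:122147437-122147685 on the plus strand and the H2-K1 sequence is chr17:34000348-34000597 on the minus strand.
B2m: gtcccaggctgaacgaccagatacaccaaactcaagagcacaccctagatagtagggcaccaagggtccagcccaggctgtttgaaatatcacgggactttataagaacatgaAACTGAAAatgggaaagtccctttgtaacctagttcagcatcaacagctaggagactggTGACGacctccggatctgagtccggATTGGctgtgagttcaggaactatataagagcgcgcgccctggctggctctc
H2-K1: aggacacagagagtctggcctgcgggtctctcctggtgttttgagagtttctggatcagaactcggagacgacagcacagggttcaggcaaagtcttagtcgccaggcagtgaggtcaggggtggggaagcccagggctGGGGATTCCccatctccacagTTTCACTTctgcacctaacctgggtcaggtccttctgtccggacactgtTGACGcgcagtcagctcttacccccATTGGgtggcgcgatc
In 8 members with a promoter entry, the TGACG core was found in 5 (Tap1, B2m, H2-K1, H2-D1 and Psmb9) and in 17.8% of all 32851 promoters of the same length. The CCAAT box was found in 6 members and 33.8% of promoters, the interferon core in 3 (B2m, H2-K1 and H2-D1) and 21.3%, and the kappa B element in 2 (H2-K1 and H2-D1) and 0.213%. The motif letters were chosen after the windows had been read, and the counts are a description. Tap1 and Psmb9 share 1 site, since their RefSeq starts lie 226 bp apart and point away from each other, while the GENCODE M21 models of the genes overlap at these ends. The 30 bases around the TGACG core are shown to compare the 4 sites.
Tap1: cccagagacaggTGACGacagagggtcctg
B2m: ctaggagactggTGACGacctccggatctg
H2-K1: tccggacactgtTGACGcgcagtcagctct
H2-D1: ccgggacactgaTGACGcgctggcaggtct

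The libraries held 1151649 to 4984833 counts, and the monosome libraries were the smallest (1151649 to 2436888). Within groups, libraries had a Spearman correlation of 0.969 to 0.987 and differed by more than counting noise (chi-square per gene 1.92 to 7.48), so all 18 were kept as separate samples. Dgcr8 itself was lower in KO by 0.56 (SE 0.19), 0.45 (SE 0.17) and 1.01 (SE 0.23) on the log2 scale in monosomes, low and high polysomes, and only the last passed the threshold, which it lost without KO replicate 3 (-0.59) or WT replicate 2 or 3 (-1.0 and -0.97). Reads came from the 3' ends of mRNAs, so they check the deletion only where it removes those bases. Pou5f1 and Sox2, which define ESCs, were among the 8 of 8 ESC markers tested. Of these, 0 were called in monosomes or low polysomes, and Pou5f1 and Dppa5a were lower in high polysomes. Of all genes tested, 8.43% were called higher and 9.63% lower in monosomes, and 11.4% and 13.6% in low polysomes. In high polysomes these shares were 15.1% and 17.9%.

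In KO against WT, Tap2, Tapbp, B2m and Psmb9 rose in all 3 fractions, H2-K1 and H2-D1 passed the threshold in low and high polysomes and Psmb10 in high polysomes, and Psmb8 was read almost only in KO. None of the genes was called lower in any fraction, against 9.63%, 13.6% and 17.9% of all genes in monosomes, low and high polysomes. A gene was called when its adjusted p (limma-voom, Benjamini-Hochberg over 12851 genes) was under 0.05 and its absolute log2 change over 1. In low polysomes, which the Tap1 ratio does not use, 8 of 9 were called higher, against 11.4% of all genes tested. The exception was Psmb10. The genes were chosen with earlier results of these data known, so the count in low polysomes is not independent of the choice. In monosomes 5 of the 8 genes other than Tap1 were called higher, against 8.43% of all genes, and H2-K1, H2-D1 and Psmb10 were not. In high polysomes 8 of the 8 were called higher, against 15.1% of all genes. The median log2 change of the 9 genes was 1.92 for monosomes, 1.76 for low and 2.23 for high polysomes. The medians over all genes were -0.0512, 0.00418 and -0.0823. Without Tap1, whose monosome and high polysome values chose the group, the medians were 2.22, 2.02 and 2.21, with Psmb8 at its fitted value. With Psmb8, which had no WT read in 2 fractions, set at its lower bound, the medians of the 9 genes were 1.85, 1.76 and 2.23. Psmb8 passed the filter through its KO libraries alone (0 of 9 WT libraries reached 3 CPM), and Psmb9 reached 3 CPM in 3 of 9 WT libraries, so these counts describe the genes that passed and are not a test of the group. Every KO library was above every WT library for 7 genes in the monosome, 8 in the low and 9 in the high polysome fraction. The shares of all genes were 23.5%, 28.6% and 29.9%. The counts of members include Tap1, whose monosome and high polysome values were used in the choice of the group. In bulk libraries a change in the number of cells that express a gene and a change in its RNA per cell cannot be told apart.

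**Figure D1:**
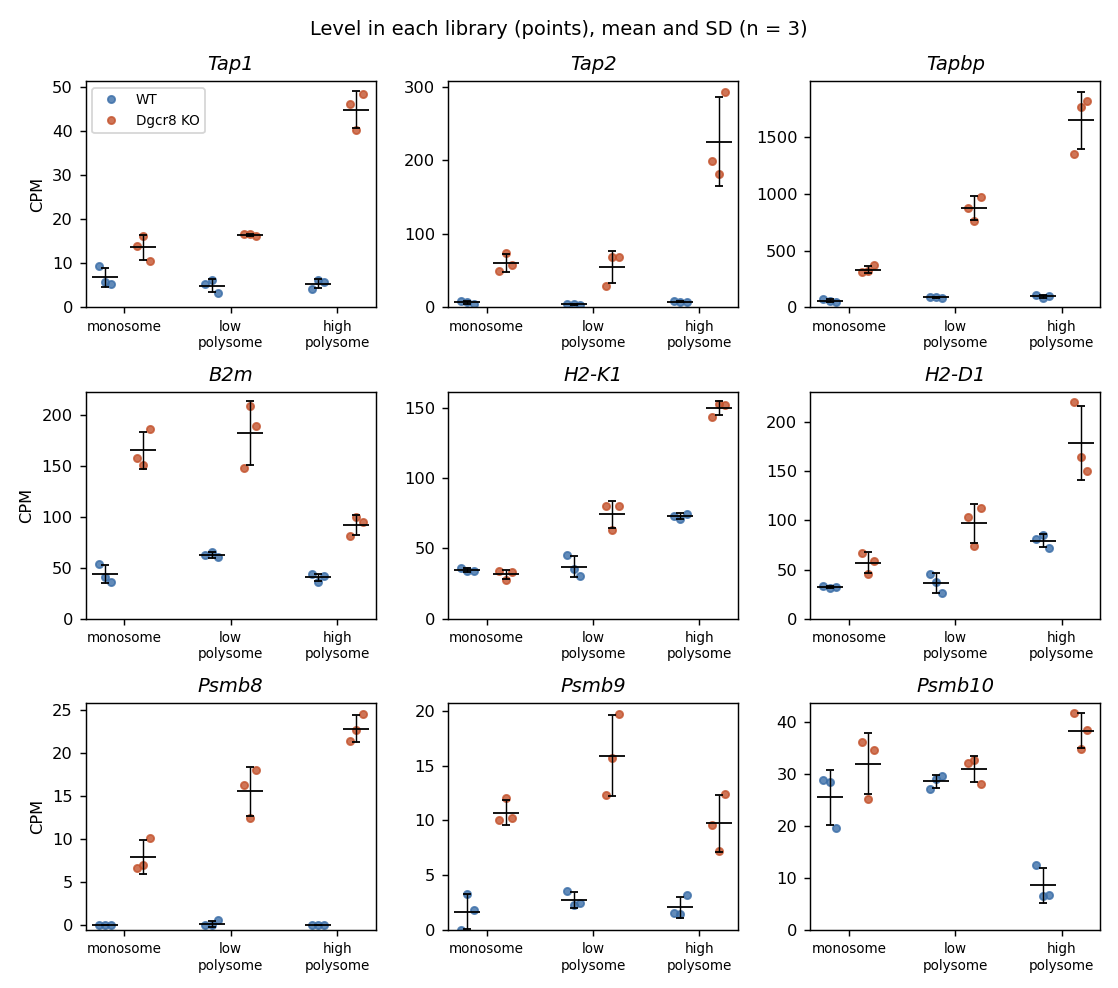
Level of each gene in CPM (y axis from 0) in the 3 fractions (x axis); points are libraries, blue for WT and orange for Dgcr8 KO, black lines are the mean and SD (n = 3). The KO points lie above the WT points in high polysomes for all 9 genes, while the H2-K1 points overlap in monosomes and the Psmb10 points in monosomes and low polysomes.

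Tap1 and Tap2 form the peptide transporter, and both were low in WT in every fraction. Tap1 (ENSMUSG00000037321, chr17:34187553-34197225, plus strand, GRCm38) had 9.38, 5.81 and 5.3 CPM in the 3 WT monosome libraries and 13.9, 16.3 and 10.6 CPM in the KO libraries. In low polysomes the WT libraries had 5.29, 6.14 and 3.31 CPM and the KO libraries 16.6, 16.7 and 16.3 CPM. The high polysome libraries had 4.29, 6.13 and 5.73 CPM in WT and 46.0, 40.1 and 48.3 CPM in KO. The KO libraries were above the WT libraries in all 3 fractions, and the gap was widest in high polysomes. In low polysomes Tap1 rose by 1.76 on the log2 scale (SE 0.28, limma adjusted p = 1.45e-06, 3 of 3 KO libraries above WT). Its log2 differences in monosomes (0.94, SE 0.36) and high polysomes (3.02, SE 0.27) are a description, because they make up the ratio that chose the gene. In the order of its levels, the WT groups came first, at 4.91 ± 1.45 (SD, n = 3) in low polysomes, 5.38 ± 0.967 in high polysomes and 6.83 ± 2.22 CPM in monosomes, and their ranges overlapped. KO monosomes (13.6 ± 2.88 CPM) and KO low polysomes (16.5 ± 0.199 CPM) followed, with ranges that met at 16.3 CPM, and KO high polysomes (44.8 ± 4.22 CPM) stood above all the others. The WT values rest on 6 to 22 reads per library, so small differences between WT fractions were not detectable at this depth.

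Tap2 (ENSMUSG00000024339, chr17:34203527-34216321, plus strand), the second chain of the transporter, had 8.71, 7.1 and 5.3 CPM in WT and 50.0, 73.4 and 58.0 CPM in KO monosomes. In low polysomes it had 4.23, 5.3 and 2.71 CPM in WT and 29.8, 67.9 and 68.0 CPM in KO, where KO replicate 1 was the lowest. Its high polysome libraries had 8.97, 7.93 and 7.32 CPM in WT and 199, 181 and 293 CPM in KO, where KO replicate 3 was the highest. Groups did not overlap in any fraction. Tap2 rose by 3.03 (SE 0.47, adjusted p = 1.89e-06), 3.66 (SE 0.42, adjusted p = 1.07e-09) and 4.76 (SE 0.32, adjusted p = 8.7e-16) on the log2 scale in monosomes, low and high polysomes. The last was above 99.9% of all genes tested.

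Tapbp (ENSMUSG00000024308, chr17:33915899-33929292, plus strand) encodes tapasin, which bridges class I molecules and the transporter. Its WT libraries had 71.7, 56.1 and 46.0 CPM in monosomes, 88.5, 92.3 and 85.8 in low polysomes and 112, 85.4 and 102 in high polysomes. Its KO libraries had 312, 319 and 370 CPM in monosomes, 876, 761 and 973 in low polysomes and 1351, 1764 and 1812 in high polysomes. The mean level went up from monosomes to high polysomes in KO (333, 870 and 1642 CPM) and in WT (57.9, 88.9 and 99.7 CPM). In WT the low and high polysome libraries overlapped. Each fraction is scaled to its own total, so these levels do not compare amounts between fractions. KO and WT did not overlap in any fraction. Tapbp rose by 2.52 (SE 0.17, adjusted p = 3.38e-15), 3.28 (SE 0.13, adjusted p = 1.2e-22) and 4.04 (SE 0.13, adjusted p = 1.08e-25). It overlaps Zbtb22 on the same strand through transcripts outside the basic annotation, the set named in the header of the count table.

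B2m (ENSMUSG00000060802, chr2:122147686-122153083, plus strand), the light chain of every class I molecule, rose in all 3 fractions, with the smallest change in high polysomes. In monosomes it had 53.6, 40.7 and 36.2 CPM in WT and 158, 151 and 186 CPM in KO. In low polysomes it had 62.1, 65.8 and 60.2 CPM in WT and 148, 209 and 189 CPM in KO. In high polysomes it had 43.3, 36.0 and 41.7 CPM in WT and 81.0, 99.4 and 94.7 CPM in KO. Groups did not overlap. The log2 changes were 1.92 (SE 0.18, adjusted p = 1.53e-11), 1.52 (SE 0.14, adjusted p = 2.38e-12) and 1.18 (SE 0.15, adjusted p = 1.39e-08). Scaled to library totals without TMM factors (the trimmed mean scaling), the change in high polysomes was 0.96 and under the fold threshold.

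The heavy chains H2-K1 (ENSMUSG00000061232, chr17:33996017-34000347, minus strand) and H2-D1 (ENSMUSG00000073411, chr17:35262730-35267499, plus strand) bind the peptide, and they differed from the transporter genes in having clear WT levels. H2-K1 had 36.2, 33.6 and 33.6 CPM in WT monosomes and 33.9, 27.6 and 32.9 CPM in KO monosomes, which overlapped (log2 -0.15, SE 0.2, adjusted p = 0.584). In low polysomes H2-K1 had 45.5, 35.2 and 30.7 CPM in WT and 79.9, 63.1 and 79.9 CPM in KO, a rise of 1.02 (SE 0.14, adjusted p = 1.18e-07). The high polysome libraries had 73.3, 71.0 and 74.8 CPM in WT and 144, 153 and 152 CPM in KO, a rise of 1.03 (SE 0.13, adjusted p = 5.74e-09). Both values sat just past the fold threshold of 1, and the low polysome value was 0.89 to 1.0 in 8 of the alternative fits, among them those without WT replicate 2 or 3 or KO replicate 1 or 3. The high polysome value was 0.81 with library totals in place of TMM factors.

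H2-D1 had 33.5, 31.0 and 32.7 CPM in WT monosomes and 66.7, 45.8 and 58.4 CPM in KO monosomes. These groups did not overlap, and the log2 change of 0.77 (SE 0.24, adjusted p = 0.00865) was under the fold threshold. In low polysomes H2-D1 had 45.5, 37.1 and 25.6 CPM in WT and 104, 74.3 and 113 CPM in KO, a rise of 1.46 (SE 0.18, adjusted p = 5.82e-09). In high polysomes it had 81.1, 84.7 and 72.3 CPM in WT and 221, 165 and 150.0 CPM in KO, a rise of 1.15 (SE 0.16, adjusted p = 5.08e-08), which was 0.99 without KO replicate 1. Heavy chain genes are near-identical in places, and the study kept uniquely mapped reads. Of the 451 stretches of 50 bases in the last 500 bases of the H2-K1 transcript, 2 (0.443%) also lie in a transcript of H2-D1, and 43 (9.53%) of those of H2-D1 lie in transcripts of other genes. For the other 8 genes the number was 0.

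Of the immunoproteasome subunits, Psmb8 and Psmb9 had few reads in WT, while Psmb10 had 18 to 104 per library. Psmb8 (ENSMUSG00000024338, chr17:34197721-34201454, plus strand), which replaces Psmb5, had no read in the 6 WT monosome and high polysome libraries and 2 reads in the WT low polysome libraries, both in replicate 3. Its KO libraries had 6.67, 6.99 and 10.2 CPM in monosomes, 16.3, 12.5 and 18.1 in low polysomes and 21.5, 22.7 and 24.6 in high polysomes. Against a floor of 3 counts per WT library, Psmb8 in KO was at least 3.61-fold higher in monosomes and at least 21.5-fold higher in the high polysome fraction. In low polysomes the ratio of summed counts (161 against 2 reads) was 77.0, with an exact 95% interval of 21 to 641 that covers counting error only. Since Psmb8 entered the test through its KO libraries, no p is given for its changes between KO and WT. Its calls are included in the counts of genes called higher above.

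Psmb9 (ENSMUSG00000096727, chr17:34181987-34187764, minus strand), the counterpart of Psmb6, had 0, 3.23 and 1.77 CPM in WT monosomes and 10.0, 12 and 10.2 CPM in KO. In low polysomes it had 3.53, 2.23 and 2.41 CPM in WT and 12.3, 15.7 and 19.7 CPM in KO. The high polysome libraries had 1.56, 1.44 and 3.18 CPM in WT and 9.59, 7.15 and 12.4 CPM in KO. The groups did not overlap, and Psmb9 rose by 3.02 (SE 0.67, adjusted p = 0.000401), 2.52 (SE 0.39, adjusted p = 6.01e-07) and 2.19 (SE 0.46, adjusted p = 8.53e-05). Psmb9 overlaps Tap1 on the opposite strand, and the study counted reads by strand.

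Psmb10 (ENSMUSG00000031897, chr8:105935735-105938444, minus strand), the counterpart of Psmb7, rose in high polysomes, and its groups overlapped in the other fractions. It had 28.8, 28.4 and 19.5 CPM in WT monosomes and 36.1, 25.2 and 34.5 CPM in KO monosomes (log2 0.27, SE 0.22, adjusted p = 0.359). In low polysomes it had 27.1, 29.0 and 29.5 CPM in WT and 32.0, 32.7 and 28.1 CPM in KO (log2 0.1, SE 0.17, adjusted p = 0.636). The high polysome libraries had 12.5, 6.49 and 6.69 CPM in WT and 41.7, 34.8 and 38.4 CPM in KO, a rise of 2.23 (SE 0.24, adjusted p = 1.99e-10). The constitutive subunits Psmb5, Psmb6 and Psmb7 were called in no fraction, although several passed the adjusted p alone. Their log2 changes lay between -0.37 and 0.53 in monosomes, 0.18 and 0.53 in low polysomes and -0.9 and -0.4 in high polysomes.

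Nlrc5 (ENSMUSG00000074151, chr8:94434356-94527272, plus strand), the activator, was under the filter and was not tested. The WT libraries held 2, 0 and 0 reads in monosomes, 1, 0 and 0 in low polysomes and 1, 0 and 0 in high polysomes. The KO libraries held 0, 3 and 1 reads in monosomes, 2, 0 and 2 in low polysomes and none in high polysomes. All of these are at or under the floor of 3 counts per library, so no difference was detectable at this depth.

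**Figure D2:**
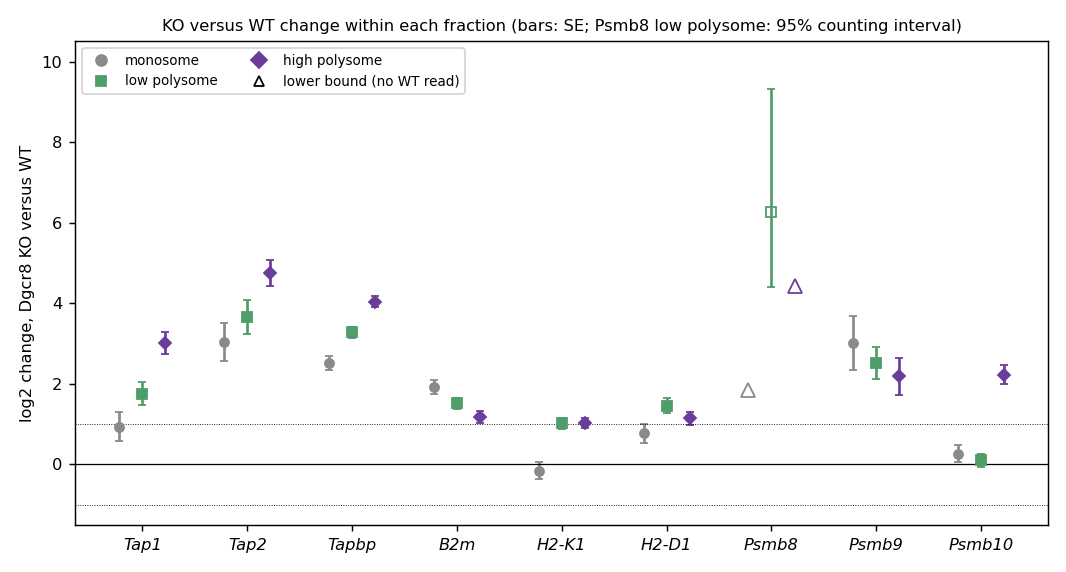
Log2 change of KO against WT (y axis) for each gene (x axis) in monosomes (grey circles), low polysomes (green squares) and high polysomes (purple diamonds); bars are SE, open triangles are lower bounds where WT had no read, the open square is the Psmb8 count ratio with its 95% interval, and dotted lines mark a log2 change of 1 either way. Apart from Psmb8, Tap2 and Tapbp have the largest changes (4.76 and 4.04 in high polysomes), while H2-K1 in monosomes (-0.15) and Psmb10 in monosomes and low polysomes (0.27 and 0.1) lie near 0.

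The ratio of high polysome to monosome within a gradient was the study's measure of translation level. In WT the ratio was called higher for 2 of the 8 genes other than Tap1, against 10.7% of all genes, and lower for 1, against 19.3%. H2-K1 (log2 1.07, SE 0.18, adjusted p = 3.06e-06) and H2-D1 (1.28, SE 0.23, adjusted p = 8.73e-06) had the higher ratios, and Psmb10 the lower one (-1.67, SE 0.28, adjusted p = 2.68e-06). Tapbp (0.77, SE 0.18, adjusted p = 0.000288) missed the fold threshold. Psmb8 had no WT read in either fraction, so its WT ratio has no value.

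In KO the ratio was called higher for 5 of the 8 genes, against 17.5% of all genes, and lower for none, against 25.5%. The 5 were Tapbp (log2 2.29, SE 0.12, adjusted p = 2.22e-19), H2-K1 (2.26, SE 0.15, adjusted p = 3.72e-16), Tap2 (1.87, SE 0.19, adjusted p = 4.64e-11), H2-D1 (1.65, SE 0.17, adjusted p = 3.86e-11) and Psmb8 (1.51, SE 0.26, adjusted p = 2.44e-06). B2m had a ratio of -0.85 (SE 0.13, adjusted p = 6.03e-07), under the fold threshold, and -1.1 with total counts. Psmb9 (-0.16, SE 0.29, adjusted p = 0.644) and Psmb10 (0.29, SE 0.17, adjusted p = 0.14) did not pass the test. The WT and KO ratios are the sides of the contrast that chose the group, so nothing is read from the difference between their counts.

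The following values of the change in this ratio between genotypes are descriptions, since the group was chosen on it. In single gradients, the log2 ratio of Tap1 was -1.01, 0.07 and 0.1 in WT and 1.68, 1.26 and 2.12 in KO, and the fitted change was 2.08 (SE 0.45). For Psmb10 the ratio was -1.16, -2.01 and -1.45 in WT and 0.2, 0.45 and 0.15 in KO (change 1.96, SE 0.33). For Tap2 it was 0.04, 0.15 and 0.42 in WT and 1.98, 1.29 and 2.33 in KO (change 1.73, SE 0.57). For Tapbp it was 0.63, 0.6 and 1.14 in WT and 2.11, 2.47 and 2.29 in KO (change 1.52, SE 0.21). In these 4 genes every KO gradient lay above every WT gradient. The share of all genes with such gradients was not counted, so nothing is read from this separation.

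H2-K1 ratios were 1.01, 1.07 and 1.14 in WT and 2.06, 2.44 and 2.18 in KO (change 1.18, SE 0.24), also without overlap. H2-D1 ratios were 1.26, 1.43 and 1.13 in WT and 1.72, 1.83 and 1.35 in KO, which overlapped (change 0.38, SE 0.28). B2m went the other way, at -0.3, -0.17 and 0.2 in WT and -0.96, -0.6 and -0.97 in KO (change -0.73, SE 0.23). Psmb9 ratios spread from -0.87 to 1.66 in WT and from -0.7 to 0.27 in KO (change -0.83, SE 0.81). Counting the fitted value of Psmb8, whose WT ratio rests on no read, 6 of 9 genes were past the threshold in the higher direction, against 6.29% of all genes, and nothing is read from this count because the choice of the genes used the contrast.

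**Figure D3:**
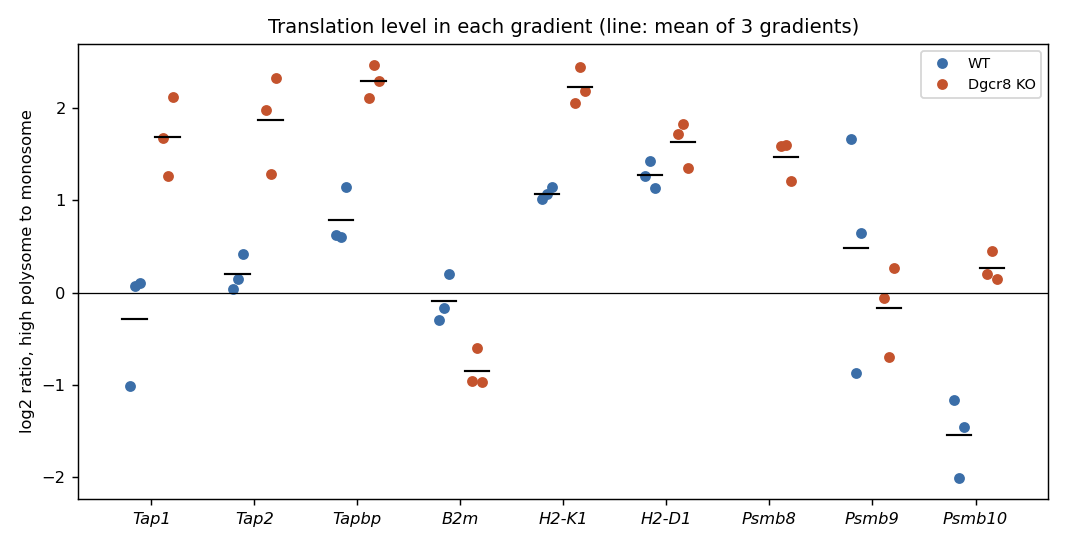
Log2 ratio of high polysome to monosome (y axis) in each of 3 gradients per genotype (points; blue WT, orange KO; lines are means) for each gene (x axis); WT values of Psmb8 are left out because no WT read was counted. Tap1, Tap2, Tapbp, H2-K1 and Psmb10 have all KO points above all WT points, and B2m has all KO points (-0.97 to -0.6) below all WT points (-0.3 to 0.2).

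As a share of the CPM summed over the 3 fractions (each fraction scaled to its own total, so a share is not a share of molecules), Tap1 had 32.2% ± 8.79 (SD, n = 3) in high polysomes in WT and 59.7% ± 4.7 in KO. The high polysome share of Psmb10 was 13.5% ± 4.23 in WT and 37.8% ± 0.266 in KO. That of Tapbp was 40.4% ± 3.63 and 57.6% ± 4.41, and that of H2-D1 was 53.8% ± 2.73 and 53.7% ± 6.14. B2m had its largest share in low polysomes in both genotypes, at 42.9% ± 3.61 in WT and 41.3% ± 3.77 in KO.

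Coding sequence length moved with this change over all protein-coding genes, so the length of each member is given beside its value. B2m and Psmb9 have the shortest coding sequences (360 and 660 nt) and the negative changes. Psmb10 (822 nt), H2-D1 (1089 nt), H2-K1 (1110 nt), Tapbp (1401 nt), Tap2 (2109 nt) and Tap1 (2175 nt) are longer. With a smoothed trend on coding length subtracted, the change of B2m was 0.23. In high polysomes, subtraction of the same kind of trend gave KO against WT values of 2.3 for B2m, 2.85 for Psmb9 and 2.71 for Tap1, in place of 1.18, 2.19 and 3.02. The part of coding length in the members' changes was not tested.

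**Figure D4:**
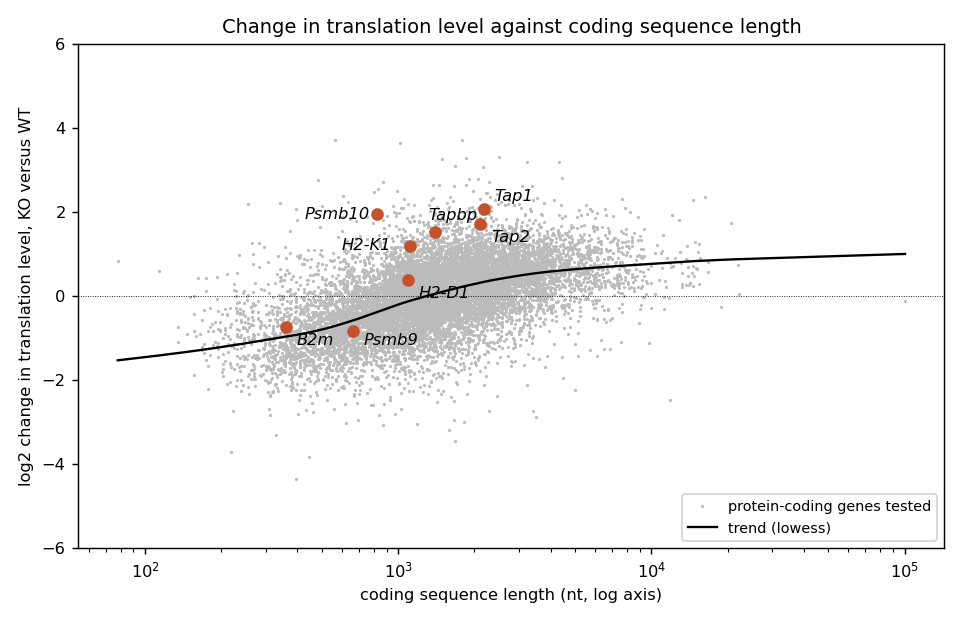
Log2 change in translation level between KO and WT (y axis) against coding sequence length in nt (x axis, log scale) for protein-coding genes tested (grey), with a lowess trend (black) and the members (orange; Psmb8 is left out because WT had no read in either fraction). B2m (-0.73) and Psmb9 (-0.83) lie at the short end near the trend, and Tap1 (2.08) and Psmb10 (1.96) lie above it.

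Other genes of the pathway were read from lists by role. Their counts stand beside the shares of all genes called in monosomes, low and high polysomes. These were 8.43%, 11.4% and 15.1% for higher and 9.63%, 13.6% and 17.9% for lower. Of 9 genes of peptide loading and quality control in the endoplasmic reticulum, 2 were called higher in monosomes, 5 in the low and 8 in the high polysome fraction, and none was lower. The count in low polysomes was 3 without WT replicate 2, WT replicate 3 or KO replicate 3, since Calr (1.02, SE 0.12) and Pdia3 (1.04, SE 0.12), chaperones of glycoproteins, sat just past the threshold. Erap1, the aminopeptidase that trims peptides in the endoplasmic reticulum, had 1, 3 and 10 WT reads in monosomes, low and high polysomes. In high polysomes it had 1.56, 1.08 and 0.955 CPM in WT and 45.6, 45.4 and 56.3 CPM in KO, a rise of 5.21 (SE 0.49). No WT library of Erap1 reached 3 CPM, so it passed the filter through its KO libraries. As for Psmb8, no p is given for it. In monosomes and low polysomes the ratios of summed counts were 53.0 (exact 95% interval 9.27 to 2118) and 59.6 (20.1 to 292). Tapbpl, a relative of tapasin that edits peptides, rose by 3.13 (SE 0.58, adjusted p = 3.41e-05), 1.91 (SE 0.3, adjusted p = 1.23e-06) and 2.38 (SE 0.36, adjusted p = 3.81e-07). Hspa5, a chaperone of the endoplasmic reticulum, rose by 1.44 (SE 0.12) and 2.23 (SE 0.12) in low and high polysomes and had 0.87 (SE 0.13) in monosomes.

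Of 18 other class I heavy chain genes, 8 were tested, and 4, 4 and 3 were called higher and 0, 1 and 1 lower in monosomes, low and high polysomes. Without KO replicate 1, 5 rather than 3 were higher in high polysomes. The genes called once, H2-T10 (2.86, SE 0.76, monosomes) and H2-T22 (1.88, SE 0.46, low polysomes), are named after their values were seen. H2-T10 had 2 WT monosome reads in all, under the floor of 3 counts per library. None of its WT libraries reached 3 CPM, so it passed the filter through its KO libraries. The nonclassical heavy chains H2-M3, H2-T3 and H2-M5 rose in all 3 fractions. H2-M3, which presents formylated peptides, rose by 3.03 (SE 0.8), 3.39 (SE 0.55) and 3.18 (SE 0.47). No WT library of H2-M3 reached 3 CPM, so it passed the filter through its KO libraries and no p is given. H2-T3 rose by 2.34 (SE 0.34), 2.69 (SE 0.28) and 4.12 (SE 0.36), and H2-M5 by 1.32 (SE 0.28), 2.05 (SE 0.27) and 1.73 (SE 0.39). H2-Q10 fell in low polysomes (-2.06, SE 0.65) and high polysomes (-1.62, SE 0.57), from 34 and 33 WT reads in all. No KO library of H2-Q10 reached 3 CPM, so it passed the filter through its WT libraries and no p is given. Its 2 calls were lost without KO replicate 2 (low polysomes, -0.96) and without KO replicate 3 (high polysomes, -1.18, adjusted p = 0.104). These genes resemble each other, and reads that map to several of them were not counted.

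Of 9 proteasome activators and assembly factors, 2, 2 and 2 were higher and 0, 1 and 2 lower in monosomes, low and high polysomes. The lower genes, named after their values were seen, were Psmg3 (-1.09, SE 0.14, and -2.02, SE 0.16) and Pomp (-1.67, SE 0.13, high polysomes), which help to assemble the proteasome. The higher genes were Psme1 and Psme2, the subunits of the activator PA28 that interferon induces. Psme1 rose by 1.16 (SE 0.18), 1.82 (SE 0.15) and 1.19 (SE 0.13), and Psme2 by 1.55 (SE 0.43), 1.37 (SE 0.29) and 1.0 (SE 0.26). The last of these was under the threshold in 6 alternative fits (0.77 to 0.99), among them those without WT replicate 2, KO replicate 1 or KO replicate 2, and the monosome call of Psme2 was lost without WT replicate 1 (1.16). Psmg3 was not called in low polysomes without WT replicate 1, and Psme1 in high polysomes was at 0.97 with total counts. Of 6 cytosolic peptidases, 1 was called higher, Npepps in high polysomes (1.25, SE 0.12), beside 15.1% of all genes. A test of a difference between fractions was not made for these lists.

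Of 16 tested regulators of class I transcription, 4, 4 and 4 were higher and 0, 1 and 3 lower in monosomes, low and high polysomes. The same 4 genes were higher in every fraction, namely Irf2, Irf1 and Irf9, interferon regulatory factors, and Rfx5, a subunit of the RFX complex that binds class I and class II promoters. Irf2 had 2.01, 0 and 4.42 CPM in WT and 20, 22.9 and 24.3 CPM in KO monosomes, and it rose by 4.0 (SE 0.67, adjusted p = 6.99e-06), 4.2 (SE 0.53, adjusted p = 1.24e-08) and 3.59 (SE 0.4, adjusted p = 4.35e-10). Irf1 rose by 1.12 (SE 0.13), 1.17 (SE 0.12) and 1.88 (SE 0.12), Irf9 by 1.1 (SE 0.14), 1.18 (SE 0.13) and 2.31 (SE 0.17), and Rfx5 by 1.2 (SE 0.16), 1.26 (SE 0.16) and 1.52 (SE 0.17). The lower genes, named after their values were seen, were Rfxap (-1.22, SE 0.32, in low and -2.18, SE 0.39, in high polysomes), Rfxank (-1.38, SE 0.34) and Nfyb (-1.55, SE 0.12) in high polysomes, all subunits of complexes that bind MHC promoters. Of 8 interferon receptors and kinases, 3, 3 and 4 were higher and 0, 1 (Socs1, an inhibitor of the pathway, -1.06, SE 0.19) and 0 lower. Without WT replicate 2 the call of Rfxap in low polysomes was lost, without KO replicate 1 that of Socs1, and without WT replicate 1 that of Irf9 in monosomes (0.99). Ifngr2 and Ifngr1 are the chains of the interferon gamma receptor. Ifngr2 rose by 2.08 (SE 0.25), 1.85 (SE 0.23) and 1.81 (SE 0.41). Ifngr1 rose by 1.53 (SE 0.19) in low and 1.53 (SE 0.18) in high polysomes and had 0.67 (SE 0.29, adjusted p = 0.0657) in monosomes. The other higher calls of this list, named after their values were seen, were in Ifnar1, Ifnar2 and Jak1. Ifnar1 had 1.06 (SE 0.22), 1.22 (SE 0.15) and 0.96 (SE 0.16, not called). Ifnar2 had 1.22 (SE 0.27), 0.75 (SE 0.15, not called) and 1.03 (SE 0.15). Jak1 was called in high polysomes alone (1.39, SE 0.16). The lists were chosen with earlier results of these data known. The percentages of all genes called, given above, are 8.43%, 11.4% and 15.1% for higher and 9.63%, 13.6% and 17.9% for lower.

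**Figure D5:**
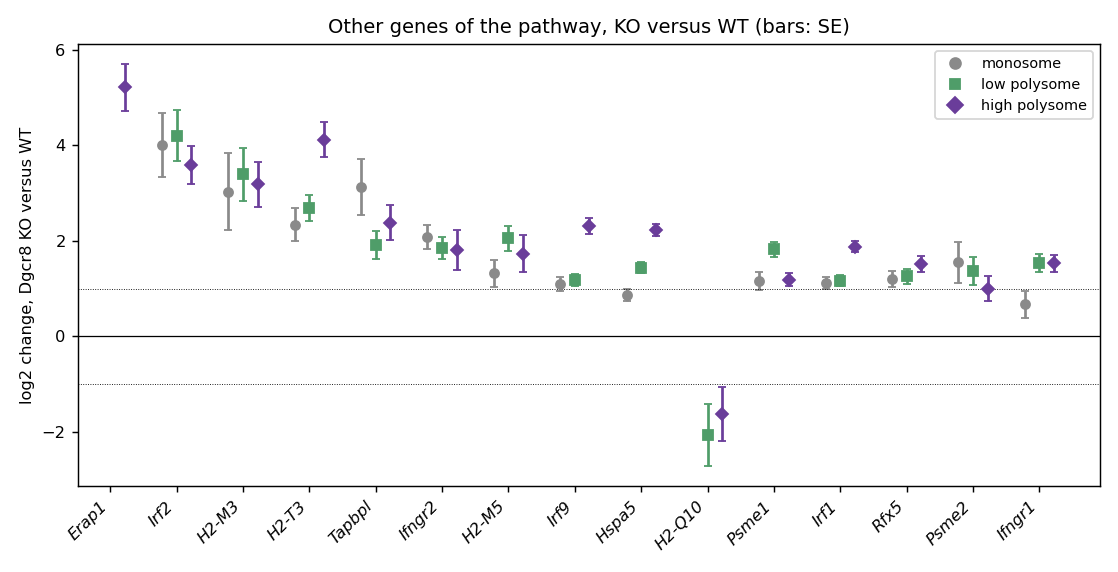
Log2 change of KO against WT (y axis) with SE for 15 other pathway genes called the same way in at least 2 fractions, those with the largest mean absolute change (x axis; grey circles monosome, green squares low polysome, purple diamonds high polysome); comparisons with 3 or fewer reads in a group are left out. Of the genes shown, only H2-Q10 lies below 0 (-2.06 and -1.62), and Erap1 is the highest (5.21 in high polysomes).

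The 5 genes whose log2 CPM followed Tap1 most closely over the 18 libraries, among 7451 candidates with a mean count of at least 50, were Slc4a11 (Pearson r 0.971), Pgd (0.969), Aldh2 (0.963), Cd109 (0.961) and Elf4 (0.958). The points share 6 groups and the gradients, so r is a description. Cd109 had 6.08, 4.51 and 6.78 CPM in WT and 19.8, 26.8 and 60.9 CPM in KO on average in monosomes, low and high polysomes. Elf4 had 16.9, 13 and 14.3 CPM in WT and 27.4, 33.5 and 69.1 CPM in KO. All 5 genes had their highest mean in KO high polysomes, as for Tap1 (Slc4a11 190, Pgd 766 and Aldh2 1571 CPM). Their choice by correlation with Tap1 over the same libraries favours this.

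Of the members, 7 lie on chromosome 17, between chr17:33915899 and 35267499, in the major histocompatibility complex. The other 53 genes tested in that interval, which was chosen after its values were seen, had calls in both directions: 6 were called higher and 8 lower in monosomes, 10 and 9 in the low and 10 and 8 in the high polysome fraction, with medians of -0.06, -0.12 and -0.03. These counts stand beside the shares of all genes called higher (8.43%, 11.4% and 15.1%) and lower (9.63%, 13.6% and 17.9%). Among the 7 members there, Tap1, Psmb9, Psmb8 and Tap2 are neighbours, with transcript starts of Tap1 and Psmb8 10237 bp apart and those of Psmb8 and Tap2 5737 bp apart. The remaining members are B2m on chromosome 2 and Psmb10 and Nlrc5 on chromosome 8.

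Marker genes of cells that could be mixed with ESCs were read in the same libraries. Ptprc and Lyz2, which define haematopoietic cells and macrophages, had 1 read each over the 18 libraries together. The haematopoietic list as a whole (5 of 10 genes tested) went up with the members: its summed level was 269 to 304, 297 to 390 and 425 to 476 CPM in WT and 335 to 420, 750 to 886 and 988 to 1188 CPM in KO monosomes, low and high polysomes. Of these sums, Laptm5, a lysosomal membrane protein, held the most, at 348 CPM in WT and 925 CPM in KO high polysomes. Cd68, also lysosomal, had 28.5 and 109 CPM there, and H2-Eb1, a class II chain, had 66.8 and 34.1 CPM. Cd74, the class II invariant chain, rose by 3.23 (SE 0.54) in low and 2.64 (SE 0.52) in high polysomes, from 8 and 10 WT reads in all. No WT library of Cd74 reached 3 CPM, so it passed the filter through its KO libraries. H2-Ab1, another class II chain, was lower in each fraction (-1.93, -1.03 and -1.18). The fibroblast list (3 of 10 tested) had summed levels of 12.7 to 18.7 CPM in WT and 5.05 to 29.8 CPM in KO libraries. Its Col1a1 was called lower in each fraction (-2.78, -2.22 and -1.59). Among the KO libraries only low polysome replicate 1 reached 3 CPM of Col1a1, so the gene passed the filter through its WT libraries. KO low polysome replicate 1 stood apart, with 28 reads of Col3a1, 13 of Col1a2 and 16 of Col1a1. Each other KO low polysome library had 0, 0 and 1. The same replicate 1 had 9 reads of Afp, a gene of the extraembryonic endoderm list, and each other library had 0 or 1. Col1a1 in replicate 1 (4.92 CPM) lay within the WT range of 3.17 to 5.3 CPM. Whether that library held other cells was not tested. The extraembryonic endoderm list (4 of 9 tested) was mostly Sparc, a matrix protein, whose change was 0.46 (SE 0.13), 0.86 (SE 0.12) and 1.11 (SE 0.12), the last called. The summed level of this list went up with the members, from 2947 to 3351 CPM in WT to 5693 to 7416 CPM in KO high polysomes. Dab2, Col4a1 and Lama1 were lower in KO in 2, 2 and 3 fractions, while Gata4, Gata6, Sox17, Sox7 and Afp stayed under the filter. No KO library of Dab2 reached 3 CPM, so it passed the filter through its WT libraries. Beside these marker calls, 8.43%, 11.4% and 15.1% of all genes were called higher in monosomes, low and high polysomes. The shares called lower were 9.63%, 13.6% and 17.9%. The number of lower calls in the last 3 lists changed when 1 gradient was left out, for example from 3 to 1 endoderm genes in low polysomes without WT replicate 1, WT replicate 2 or KO replicate 3. The part of other cell types in the members' changes was not tested.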

How the data were processed

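Messenger RNA of 3 ribosome fractions (monosome, low polysome, high polysome) from 3 gradients each of WT and Dgcr8 KO ESCs was sequenced from its 3' ends. The authors trimmed reads with Cutadapt 1.14, aligned them to mm10 with STAR 2.5.3a, kept uniquely mapped reads and counted them by strand with featureCounts 1.5.3, and the deposited values are raw counts per gene. Spike-in RNAs, at most 0.00215% of counts, were left out of all totals. Gene names and coordinates came from GENCODE M21.

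Genes that reached 3 CPM in 3 or more libraries were tested with limma 3.58.1 (voom, TMM factors from edgeR 4.0.16, 1 mean for each of 6 groups, all 18 libraries, two-sided, R 4.3.3), and p-values were adjusted over all genes tested (Benjamini-Hochberg). This fit gave every adjusted p. Printed CPM are counts over the total of tested genes times the TMM factor, and intervals and floors cover counting error only. Each fraction is scaled to its own total. The code was checked on simulated data.

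The genes, the pathway lists and the marker lists were chosen with earlier results of these data known, and 1 gene of the regulator list is not reported here. The members and Dgcr8 are named always. Of the pathway lists, genes called the same way in at least 2 fractions are named, up to 15 by mean absolute log2 change, and the 5 genes most like Tap1 are named by Pearson's r of log2 CPM (prior count 2).

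The labels put fractions of 1 genotype and number on 1 gradient, and their deviations from group means correlated at 0.032 to 0.135 (18 pairs, against -0.14 to 0.076 in 36 other pairs), so gradients pair fractions. Across genotypes the labels give no such link. Alternatives were other scalings, filters, edgeR, DESeq2 1.42.0, blocks, no fold threshold, a trend on coding length and leaving out each gradient.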

Additional observations from a re-analysis of the deposited data

Results flagged for a closer look

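The ratio of high polysome to monosome of Psmb10, an immunoproteasome subunit, lay on different sides of 0 in the genotypes. Its mean log2 ratio was -1.54 in WT, where all 3 gradients were below 0 (-2.01 to -1.16), and 0.27 in Dgcr8 KO, where all 3 were above 0 (0.15 to 0.45). The KO ratio by itself did not pass the test, and its side of 0 depended on the scaling. With library totals in place of TMM factors, chosen after seeing the data, the KO gradients were at -0.02, 0.22 and -0.12 and the WT gradients at -1.1, -1.91 and -1.39. The difference was not tested, because the genes were picked on this contrast. The WT high polysome values rest on 18 to 32 reads per library.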

How the results depend on the processing

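Of the counts of members called in the 6 comparisons, 1 moved by more than 1.5 times: with library totals in place of TMM factors, 5 of 8 genes rather than 8 were called higher in high polysomes, because B2m (0.96), H2-K1 (0.81) and H2-D1 (0.93) came under the fold threshold. That scaling moved the median of all genes in high polysomes from -0.082 to -0.306 and that of the change in translation level from 0.007 to -0.322. The share of calls that were higher went from 45.8% to 31.4% in high polysomes, from 40.6% to 28.3% for the KO ratio and from 41.6% to 12% for the change in translation level, whose higher calls went from 808 to 282 genes. The ratio of B2m in KO passed the threshold (-1.1) under it. No value of the 9 genes changed sign in a call under any alternative. The other 83 such counts under an alternative stayed within 1.5 times of the reported one. Among all other values, which include the small counts of the pathway and marker lists, 110 moved.

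Leaving out each gradient gave 5 to 5 genes called higher in monosomes, 7 to 8 in low and 7 to 8 in high polysomes, 3 to 3 called in the WT ratio, 5 to 5 in the KO ratio and 4 to 6 past the threshold in the change in translation level. With the number as a replicate block the counts were 5, 8 and 8, and with the gradient as a replicate block 3, 5 and 6, which changed no member's call. Across genotypes, libraries of 1 fraction and number correlated at 0.0 to 0.102 in their deviations from group means (9 pairs), against -0.099 to 0.055 for other numbers (18 pairs). WT monosome replicate 1 was closer to KO replicate 3 (0.055) than to KO replicate 1 (0.011), so not every library was closest to its own number, a hint from the data and not the design. The call of H2-K1 in low polysomes was lost in 8 alternatives, including those without WT replicates 2 (0.97) and 3 (0.89) and KO replicates 1 and 3 (0.97 each). Depth limits Nlrc5, Psmb8 and Psmb9 most, with 0 to 10 reads per WT library.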
